A study of Mus musculus with 6 samples.

Results

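The genes described here are 10 factors that fat cells release into the blood or onto their neighbours: *Adipoq*, *Lep*, *Retn*, *Cfd*, *Rarres2*, *Nampt*, *Nrg4*, *Rbp4*, *Angptl4* and *Apln*. They were found by their symbols, and all 10 are among the 52089 symbols of the expression table. The cells were primary brite adipocytes, the heat-producing fat cells that can arise within white fat, grown from stromal-vascular cells of the inguinal white fat of 129SvEv mice (129S6sv/ev in the study's methods). The animals were males a few weeks old. In all 6 libraries the cells had been induced over 2 days and then kept in differentiation medium for 1 day with rosiglitazone, a drug that activates the nuclear receptor PPARγ. They were reverse transfected with an LNA gapmer, a short antisense oligonucleotide that leads to cleavage of its target RNA, at a dose of 50 nM and harvested 24 h later. In 3 libraries (*Ctcflos* KD) the oligonucleotide was directed against the long noncoding RNA *Ctcflos*, and in 3 libraries (control) it was nontargeting. The cells are a culture of progenitors early in differentiation, not a purified population of fat cells, and the protein released into the medium was not measured. Nothing in the labels says that the libraries of a group came from separate mice or cultures, so p-values measure the spread between these libraries, which may be technical.

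Adipokines are hormones and carrier proteins made by adipose tissue. Adiponectin (*Adipoq*) raises insulin sensitivity and is a mark of the mature fat cell, while leptin (*Lep*) reports fat stores to the brain and is made mostly by large white adipocytes, less by brown and brite ones. Other members act nearer to the cell: angiopoietin-like 4 (*Angptl4*) blocks lipoprotein lipase and thereby the uptake of fat, neuregulin 4 (*Nrg4*) is a growth factor released by brown fat, and apelin (*Apln*) acts on vessels. The comparison asks which of these transcripts differ in level in cells that have lost *Ctcflos* early in brite differentiation.

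Levels are given as RPKM, the reads per kilobase of transcript and per mio mapped reads, averaged over all transcript accessions of a gene. The depth recovered from the values was 60.8 to 75.5 mio reads in KD and 62.9 to 79.2 mio in control libraries. *Ctcflos*, listed as 1300015D01Rik, had 0.0969, 0.0705 and 0.210 RPKM in KD and 0.748, 0.751 and 0.840 RPKM in control libraries, or 16.1% of control, with an adjusted p of 0.025 in limma with no filter on low values, a call that was lost in 5 of 6 fits with a library left out (adjusted p of up to 0.13), while all KD libraries were below all controls. All 12 markers of adipocytes were past a mean of 1 RPKM, with a summed level of 4164 to 5180.2 RPKM in KD and 5192 to 5851 RPKM in control libraries. Markers of endothelial cells (0.741 to 1.65 RPKM summed over 8 genes) and of epithelial cells (0.0717 to 0.523 RPKM over 6 genes) were near 0. *Ctcflos* KD 3 and control 2 stood apart from the other libraries in some of the markers. The summed level of 10 macrophage markers was 22.2 RPKM in KD 3 against 7.50 and 7.57 RPKM in the other KD libraries, and 34.7 RPKM in control 2 against 9.83 and 9.86 RPKM in the other controls. Of these 10 markers, 3 were past a mean of 1 RPKM, none was at 0 in all libraries, and 7 were highest of their group in both KD 3 and control 2. Single markers are named here after their values were seen. The sum rests largely on *Lyz2* (12.8 RPKM in KD 3 and 24.5 RPKM in control 2), whereas *Cd68*, with 4.12, 3.44 and 2.16 RPKM in KD and 0.657, 1.92 and 0.664 RPKM in control libraries, was lowest of the KD libraries in KD 3 and rose in KD (log2 fold change 1.05, adjusted p = 0.023 in limma). *Csf1r* was likewise lowest of the KD libraries in KD 3 and above every control in all 3 KD libraries. The smooth muscle actin gene *Acta2*, 1 of 6 mural markers, had 48.2 RPKM in KD 3 and 83.6 RPKM in control 2 against 17.2 to 38.8 RPKM in the other libraries, while only 2 of the 6 were highest of their group in both and 2 were lowest. *Ly6a*, 1 of 10 progenitor markers, had 152 RPKM in KD 3 and 243 RPKM in control 2 against 317 to 413 RPKM in the others, and 3 of the 10 were lowest of their group in both. Summed, the mural markers came to 19.3 to 49.8 RPKM in KD and 34.9 to 85.9 RPKM in control libraries, and the progenitor markers to 194 to 413 RPKM and 302 to 474 RPKM. Values are therefore also given without this pair.

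In 3 members, *Adipoq*, *Lep* and *Nrg4*, no KD library reached the level of any control. The same held for 21.9% of the 11701 genes past a mean of 1 RPKM. *Lep* and *Nrg4* are below that mean, and no such share was computed with no filter. The start sites of the 3 members are shown because their groups did not overlap. The RefSeq windows of GRCm38.p6 run from 250 bases before to 50 bases after the start of transcription, which follows base 250. *Lep* lies at chr6:29059971-29060270 on the plus strand, *Adipoq* at chr16:23146286-23146585 on the plus strand and *Nrg4* at chr9:55283576-55283875 on the minus strand. The *Nrg4* window is at a RefSeq start inside the Gencode vM21 span of the gene (chr9:55220222-55326844), not at the upstream end of that span. Capitals mark matches, on either strand, to the motifs TTGCGCAA (a palindrome bound by C/EBP factors), CCAAT (a common promoter box), TATAAA (an element that places the start site), AGGTCA (bound by nuclear receptors) and ACGTG (the core of the hypoxia response element).
*Lep*: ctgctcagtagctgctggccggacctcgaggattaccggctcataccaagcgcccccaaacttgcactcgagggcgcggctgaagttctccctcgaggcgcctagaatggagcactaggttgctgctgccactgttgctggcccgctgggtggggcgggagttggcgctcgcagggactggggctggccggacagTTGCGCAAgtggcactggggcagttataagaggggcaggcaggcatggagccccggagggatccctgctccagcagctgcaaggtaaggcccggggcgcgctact
*Adipoq*: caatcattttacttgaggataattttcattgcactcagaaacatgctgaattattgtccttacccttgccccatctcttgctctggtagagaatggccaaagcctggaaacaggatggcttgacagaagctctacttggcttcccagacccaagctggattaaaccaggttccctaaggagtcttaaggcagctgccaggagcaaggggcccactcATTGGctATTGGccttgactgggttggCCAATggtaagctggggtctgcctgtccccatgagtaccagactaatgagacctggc
*Nrg4*: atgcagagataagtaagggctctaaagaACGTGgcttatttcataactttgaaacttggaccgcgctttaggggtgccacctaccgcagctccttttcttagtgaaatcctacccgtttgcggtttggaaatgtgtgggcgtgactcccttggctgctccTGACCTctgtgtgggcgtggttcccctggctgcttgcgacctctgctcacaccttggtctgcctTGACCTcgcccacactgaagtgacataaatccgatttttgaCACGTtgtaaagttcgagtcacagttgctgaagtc
The *Lep* window holds TTGCGCAA at position 196, a motif found in 0.183% of all 32851 windows, and 0 of the other 7 members with a window hold it. *Adipoq* holds CCAAT 3 times, at positions 217 and 224 on the opposite strand, where it reads ATTGG, and at position 244 on the same strand, and 37.4% of all windows hold this motif. The *Nrg4* window holds AGGTCA at positions 161 and 225, both on the opposite strand, and ACGTG at positions 29 and 266, the latter on the opposite strand. AGGTCA is in 16.3% and ACGTG in 19.6% of all windows, while TATAAA, in 13.6%, was found in *Rbp4* alone of the 8 members. Of the members, 8 had a window, and *Rarres2* and *Angptl4* had no entry in the table used. None of the 5 motifs is in all 3 windows printed, and a match describes letters only, not binding.

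*Adipoq* was by far the most abundant of the members. It lies at chr16:23146536-23158028 on the plus strand (Gencode vM21, GRCm38), and no other gene overlaps it. Its level was 632, 802 and 1045 RPKM in *Ctcflos* KD 1 to 3 and 1168, 1146 and 1247 RPKM in controls 1 to 3. All KD libraries were below all controls, KD 3 lay nearest to them, and the KD libraries spread more widely. The mean was 826 ± 208 RPKM (SD, n = 3) in KD and 1187 ± 53.0 RPKM (SD, n = 3) in control libraries, or 69.6% of control. This is a log2 fold change of -0.55 on the log2(RPKM + 1) scale (SE, the standard error, 0.191, 95% interval -0.99 to -0.11), with an adjusted p of 0.069 in limma, so that it did not pass the threshold of 0.05. Without KD 3 and control 2 the log2 fold change was -0.76 with an adjusted p of 0.024 in limma, and without KD 3 alone it was -0.74 with an adjusted p of 0.011. In these fits more genes passed in all, 4577 and 4810 against 2803 with all libraries. With any 1 of the other libraries left out, *Adipoq* did not pass (log2 fold change -0.58 to -0.37, adjusted p of 0.12 to 0.21 in limma). The 5 accessions of *Adipoq* all had a log2 fold change of -0.55. The summed adipocyte markers had the same order as *Adipoq* over the KD libraries, at 4164, 4793 and 5180.2 RPKM, a sum that is mostly *Fabp4*. Without *Fabp4* the sum was 1336, 1322 and 1606 RPKM in KD 1 to 3, which is not this order. Singly, 6 of the 12 markers had the order of *Adipoq*. Their part in the difference was not tested. In these bulk libraries fewer fat cells and less RNA per fat cell cannot be told apart.

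Adiponectin is assembled in the endoplasmic reticulum by chaperones and hydroxylases, acts through the receptors AdipoR1 and AdipoR2 and binds T-cadherin. *Adipor2*, the most abundant receptor gene of the members, had 72.9, 84.4 and 81.1 RPKM in KD and 105, 94.5 and 109.8 RPKM in control libraries. All its KD values were below all controls, with a log2 fold change of -0.37 (SE 0.127, adjusted p = 0.068 in limma), and without KD 3 and control 2 its adjusted p was 0.043. *Pdia4*, a disulfide isomerase of the same compartment, fell from 76.1 ± 7.44 to 47.0 ± 5.23 RPKM (SD, n = 3), a log2 fold change of -0.68 with an adjusted p of 0.015 in limma, which rose to at most 0.075 when control 1 or control 3 was left out. T-cadherin (*Cdh13*) was near 0, with a control mean of 0.120 RPKM.

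*Lep* was close to the limit of detection in these cells. It lies at chr6:29060220-29073877 on the plus strand with no overlapping gene. The gene value was 0.00542, 0.0164 and 0.00337 RPKM in *Ctcflos* KD and 0.0525, 0.0617 and 0.0456 RPKM in control libraries, a mean of 0.00838 ± 0.00698 against 0.0532 ± 0.00808 RPKM (SD, n = 3). All KD libraries were below all controls, at 15.7% of control. On its RefSeq mRNA, with the length of 3259 bases of the Gencode transcript, these levels came to 2, 6 and 1 reads in KD and 20, 20 and 14 reads in control libraries. Per depth, the 9 KD reads were 17.4% of the 54 control reads, with an exact 95% interval of 7.53 to 35.4% that covers counting error only, and mates of a read pair are not independent. In the fit with no filter on low values, the log2 fold change was -0.063 on the log2(RPKM + 1) scale (SE 0.0123, adjusted p = 0.041 in limma), a size that the pseudocount of 1 compresses. With a pseudocount of 0.1 the log2 fold change was -0.50. That call was lost when any 1 library was left out (adjusted p of 0.051 to 0.15 in limma) and without KD 3 and control 2 (adjusted p = 0.12), while each of these fits kept the negative sign. The leptin receptor gene *Lepr* was near 0 as well, with a control mean of 0.00438 RPKM.

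*Nrg4* lies at chr9:55220222-55326844 on the minus strand, and *Fbxo22* and a pseudogene overlap it on the opposite strand, so its values are uncertain if the counting did not use the strand. Its level was 0.447, 0.388 and 0.448 RPKM in *Ctcflos* KD and 0.591, 0.518 and 0.592 RPKM in control libraries. In this mean over accessions the groups did not overlap, and each was tight, with 0.428 ± 0.0343 against 0.567 ± 0.0426 RPKM (SD, n = 3), or 75.5% of control. The log2 fold change of -0.13 (SE 0.0801, 95% interval -0.32 to 0.056) had an adjusted p of 0.37 in limma with no filter. The mean was pulled down by 10 of the 13 accessions, which were below 1 RPKM. The separation did not hold in every accession. Of the 3 accessions with a mean of at least 1 RPKM, 2 had all KD libraries below all controls. In the third, AK041077, the groups overlapped, at 90.7% of control (log2 fold change -0.087, adjusted p = 0.58 in limma over accessions). Some of the accessions below 1 RPKM overlapped as well. The RefSeq mRNA NM_032002 stood at 1.72, 1.49 and 1.44 RPKM in KD and 1.96, 1.92 and 2.14 RPKM in control libraries, or 77.2% of control, and its log2 fold change was -0.24 (SE 0.0982, adjusted p = 0.10 in limma over accessions). Its receptor gene *Erbb4* was listed at 0 in all libraries but control 2, and *Erbb3* had a control mean of 0.0247 RPKM.

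*Angptl4* was the member with the largest positive difference. It lies at chr17:33773750-33781830 on the minus strand, is a target of PPARγ, and was the second most abundant member. Its level was 193, 214 and 139.7 RPKM in *Ctcflos* KD and 139.8, 127 and 164 RPKM in control libraries. KD 1 and KD 2 were above all controls, whereas KD 3 was within their range. The mean was 182 ± 38.2 against 144 ± 19.1 RPKM (SD, n = 3), or 127% of control, with a log2 fold change of 0.32 (SE 0.188, 95% interval -0.11 to 0.76, adjusted p = 0.24 in limma). Without KD 3 it was 0.50 with an adjusted p of 0.038 in limma, in a fit where 4810 of 11704 genes passed. Without KD 3 and control 2 it was 0.42 with an adjusted p of 0.072. With any 1 of the other libraries left out it was 0.20 to 0.43 and did not pass (adjusted p of 0.25 to 0.50 in limma). All 7 accessions had a positive log2 fold change, from 0.19 to 0.35.

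The enzyme that *Angptl4* inhibits, lipoprotein lipase (*Lpl*), had 348, 367 and 504 RPKM in KD and 521, 567 and 513 RPKM in control libraries, with a log2 fold change of -0.41 (SE 0.169, adjusted p = 0.11 in limma), and its groups did not overlap. *Lmf1*, a chaperone that lipoprotein lipase needs to mature, fell from 2.57 ± 0.409 to 1.05 ± 0.115 RPKM (SD, n = 3), a log2 fold change of -0.79 (SE 0.111, adjusted p = 0.0056 in limma), and it passed with any 1 library left out. Without KD 3 and control 2, the adjusted p was 0.032 for *Lpl* and 0.0032 for *Lmf1*.

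*Cfd* encodes adipsin, the complement factor D protease that fat cells release and that starts the alternative complement pathway. It lies at chr10:79890853-79892655 on the plus strand. It had 8.65, 9.85 and 5.79 RPKM in KD and 13.3, 9.60 and 12.2 RPKM in control libraries, so that KD 2 overlapped with control 2. The mean was 8.10 ± 2.08 against 11.7 ± 1.88 RPKM (SD, n = 3), or 69.3% of control, and in log2 it differed by -0.50 (SE 0.192, 95% interval -0.94 to -0.054, adjusted p = 0.095 in limma). Without KD 3 and control 2 it was -0.42 with an adjusted p of 0.028, and with any 1 library left out it did not pass (adjusted p of 0.080 to 0.27 in limma). *C3*, the central complement protein, fell from 3.34 ± 0.460 to 1.91 ± 0.471 RPKM (SD, n = 3), with a log2 fold change of -0.58 and an adjusted p of 0.025 in limma, a call that was lost without KD 2, control 1 or control 3 (adjusted p of up to 0.10).

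*Rbp4* encodes the carrier of retinol in blood and lies at chr19:38116629-38125281 on the minus strand. It had 53.7, 48.3 and 26.9 RPKM in KD and 68.1, 40.4 and 67.4 RPKM in control libraries. Control 2 lay within the range of the KD libraries, and KD 3 was the lowest of all, for a log2 fold change of -0.46 (SE 0.293, 95% interval -1.13 to 0.21, adjusted p = 0.28 in limma). Without KD 3 and control 2, the lowest library of each group, it was -0.41 with an adjusted p of 0.041 in limma, in a fit where 39.1% of all genes tested passed. The 2 remaining libraries of each group lay close together, which follows from the removal of the low ones. With any 1 library left out it did not pass (adjusted p of 0.14 to 0.60).

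*Nampt*, at chr12:32819545-32853349 on the plus strand, encodes visfatin, an enzyme of NAD synthesis that is also released, and the noncoding gene *Gdap10* overlaps it on the same strand. It had 53.2, 60.4 and 40.3 RPKM in KD and 86.6, 42.1 and 68.6 RPKM in control libraries. The ranges overlapped through control 2, and the difference in log2 was -0.31 (SE 0.265, 95% interval -0.92 to 0.30, adjusted p = 0.41 in limma), and -0.44 with an adjusted p of 0.074 without KD 3 and control 2. *Sirt1*, a deacetylase that uses NAD, rose from 2.36 ± 0.313 to 3.52 ± 0.358 RPKM (SD, n = 3), with a log2 fold change of 0.43 and an adjusted p of 0.027 in limma, a call kept without KD 3 and lost without any 1 of the other libraries (adjusted p of up to 0.11).

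*Rarres2* encodes chemerin, an attractant of immune cells. It lies at chr6:48569696-48572789 on the minus strand, overlapped by *Lrrc61* on the opposite strand. It had 31.9, 36.1 and 17.9 RPKM in KD and 29.9, 23.8 and 34.9 RPKM in control libraries. The groups overlapped fully, and the log2 fold change of -0.084 (SE 0.258, 95% interval -0.68 to 0.51, adjusted p = 0.83 in limma) turned to 0.071 without KD 3 and control 2. Of its receptors, *Ccrl2*, which presents chemerin at the cell surface and is named here after its values were seen, had 8.53, 11.6 and 2.37 RPKM in KD and 4.54, 2.74 and 5.49 RPKM in control libraries. Its log2 fold change was 0.53 (SE 0.447, adjusted p = 0.41 in limma), and without KD 3 and control 2 the adjusted p was 0.010.

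*Apln*, at chrX:48025146-48034853 on the minus strand, was the most variable of the members past a mean of 1 RPKM. It had 13.3, 16.9 and 3.76 RPKM in KD and 15.1, 5.07 and 17.6 RPKM in control libraries, so that its highest library was 4.68 times its lowest. Both low values were in KD 3 and control 2, and the other 4 libraries lay between 13.3 and 17.6 RPKM. In log2 the groups differed by -0.19 (SE 0.555, 95% interval -1.47 to 1.09, adjusted p = 0.82 in limma), and -0.11 with an adjusted p of 0.57 without this pair. The sign turned when KD 3, control 1 or control 3 was left out. The apelin receptor gene *Aplnr* was near 0, with a control mean of 0.0407 RPKM.

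*Retn*, at chr8:3655770-3660110 on the plus strand, encodes resistin, a hormone of mouse fat cells that lowers insulin sensitivity. It was the steadiest of the members past a mean of 1 RPKM, with 17.8, 21.7 and 22.7 RPKM in KD and 17.4, 18.1 and 19.9 RPKM in control libraries. KD 1 lay within the range of the controls and the other KD libraries above it, with a log2 fold change of 0.15 (SE 0.129, 95% interval -0.14 to 0.45, adjusted p = 0.40 in limma), and 0.076 with an adjusted p of 0.68 without KD 3 and control 2. Its RefSeq mRNAs differed in level, with a control mean of 24.3 RPKM for NM_001204959 and 7.49 RPKM for NM_022984, and their log2 fold changes were 0.17 and 0.094.

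**Figure D1:**
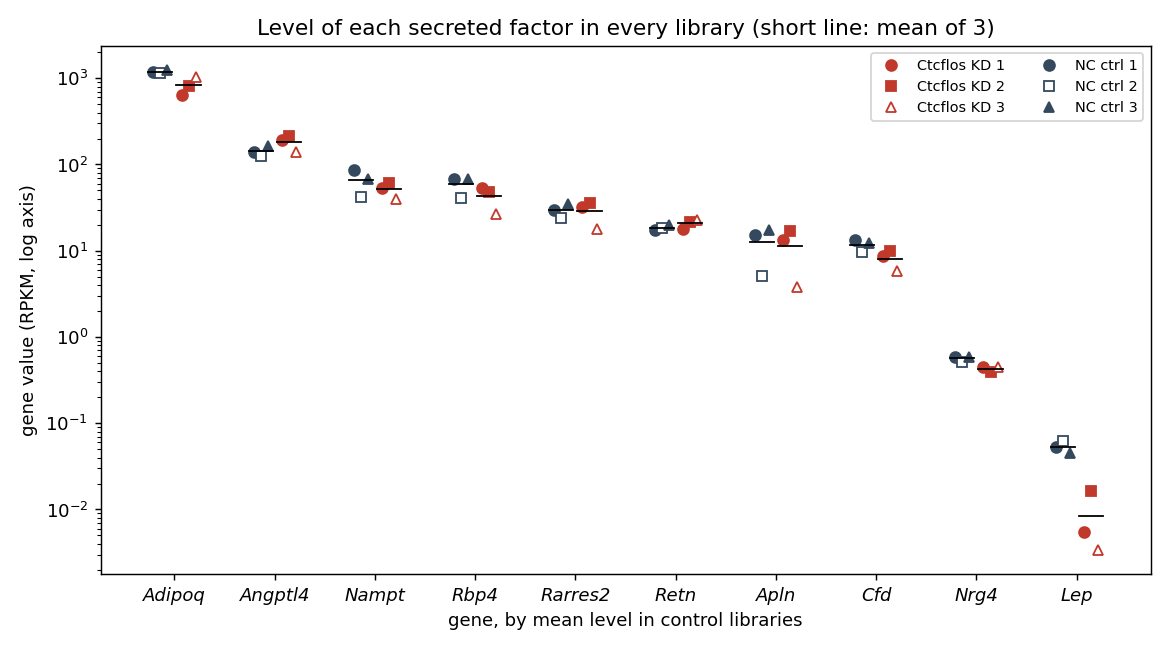
Level of each of the 10 genes (RPKM, log axis) in every library, ordered by the mean level in control libraries. Red points are *Ctcflos* KD and dark points control libraries, open symbols mark KD 3 and control 2, and short lines are means of 3 libraries. *Adipoq*, *Nrg4* and *Lep* show no overlap between the groups, while *Apln* drops in both open symbols.

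The order of mean levels per length in control libraries was *Adipoq* (1187 RPKM), *Angptl4* (144), *Nampt* (65.8), *Rbp4* (58.7), *Rarres2* (29.5), *Retn* (18.5), *Apln* (12.6), *Cfd* (11.7), *Nrg4* (0.567) and *Lep* (0.0532). The control ranges of *Nampt* and *Rbp4*, of *Retn* and *Apln*, and of *Apln* and *Cfd* overlapped, and those of the other neighbours did not. The order was the same when only curated RefSeq mRNAs were used. *Adipoq* made up 63.0, 66.3 and 80.2% of the summed RPKM of the members in KD 1 to 3 and 75.9, 81.1 and 76.4% in the controls. *Angptl4* made up 19.2, 17.7 and 10.7% in KD and 9.09, 8.98 and 10.1% in control libraries, so that all KD shares were above all control shares. Such a share also rises when *Adipoq*, the largest part of the sum, is lower. In RPKM, *Angptl4* in KD 3 (139.7) lay within the range of the controls (127 to 164). The summed level was 1003, 1209 and 1302 RPKM in KD and 1539, 1412 and 1633 RPKM in control libraries.

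Of the 10 members, 8 passed the mean of 1 RPKM, and 0 of these 8 passed an adjusted p of 0.05 in limma, against 24.0% of the 11701 genes tested, while genes called lower in KD made up 12.4% of those tested. At an unadjusted p under 0.05 there were 2, *Adipoq* and *Cfd*, but the share of all genes at that threshold was not computed, so this count has no background. Of the 8, 6 had a negative log2 fold change, and their median was -0.25 against 0.028 over all genes tested. *Adipoq* was the only one of the 8 with all KD libraries below all controls, against 21.9% of the genes tested, and 0 had them above all controls, against 22.9%. With no filter, 1 of 10 members passed, *Lep*, against 4.71% of 38335 genes. Without KD 3 and control 2, 3 of 8 passed, namely *Adipoq*, *Cfd* and *Rbp4*, all lower in KD, against 39.1% of the genes tested. Of the 48 accessions of the members, 35 had a mean of at least 1 RPKM and 0 passed, against 26.0% of 67403 accessions.

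**Figure D2:**
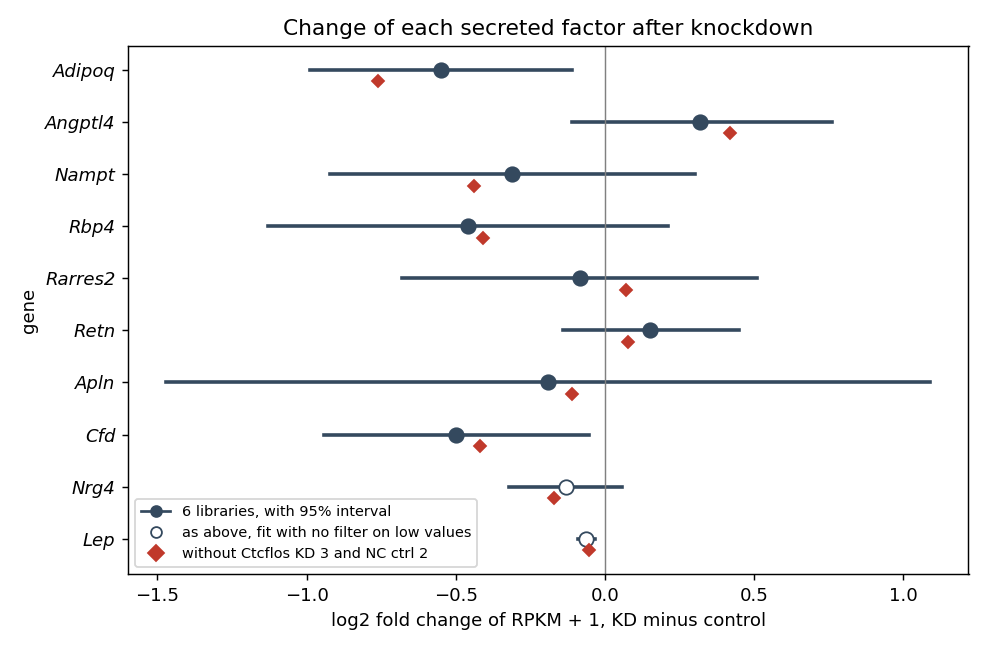
Log2 fold change (KD minus control, log2(RPKM + 1) scale) of the 10 genes from limma, with 95% intervals as bars. Filled dots are from the fit of genes past a mean of 1 RPKM, open dots from the fit with no filter, and red diamonds leave out KD 3 and control 2; the intervals of *Adipoq*, *Cfd* and *Lep* lie below 0 before adjustment for the number of genes tested.

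In 6 members (*Cfd*, *Rarres2*, *Nampt*, *Rbp4*, *Angptl4* and *Apln*), KD 3 and control 2 were each the lowest library of their group. The same held for 27.7% of the 11701 genes tested, and in 10.2% both were the highest. *Adipoq* did not follow this pattern: KD 3 was its highest KD library, and control 2 its lowest control by a small margin. *Lyz2* and *Acta2* were highest of their group in these libraries and *Ly6a* was lowest, but the macrophage, mural and progenitor lists did not move as wholes. The part of these genes in the pattern was not tested.

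**Figure D3:**
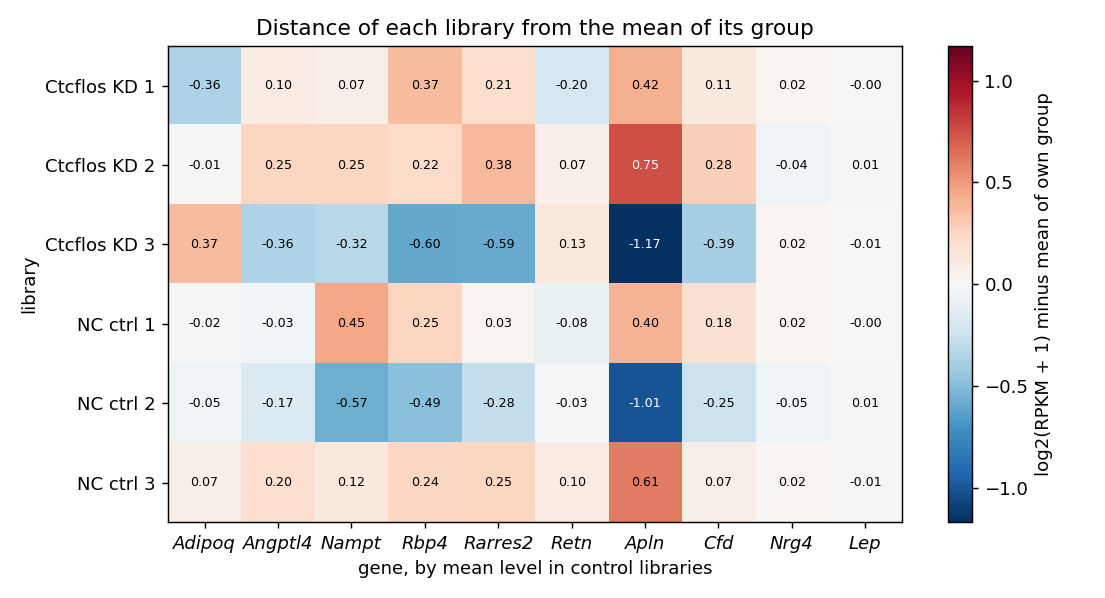
Distance of each library from the mean of its group on the log2(RPKM + 1) scale, for the 10 genes (columns) and 6 libraries (rows), with blue below and red above the group mean. The rows of KD 3 and control 2 are blue in the same 6 genes, most strongly in *Apln*, and the low levels of *Nrg4* and *Lep* give small distances on this scale.

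Of 20 receptor genes of the members, 7 passed the mean of 1 RPKM and 0 of these 7 passed an adjusted p of 0.05 in limma. At an unadjusted p under 0.05 there was 1, *Adipor2*, again with no share of all genes computed, and the median log2 fold change was -0.059. The integrin gene *Itgb1* was the second most abundant, with 45.5 ± 3.77 against 53.8 ± 5.14 RPKM (SD, n = 3) and an adjusted p of 0.21. Of 30 partner genes, which assemble, cleave, carry or are acted on by the members, 17 were tested, 1 rose (*Sirt1*) and 3 fell (*Lmf1*, *Pdia4* and *C3*), with a median log2 fold change of -0.25. These 4 of 17 are near the 24.0% of all genes tested that passed. *P4ha1*, a collagen prolyl hydroxylase subunit, was the most abundant partner after *Lpl* and *Pdia4*, with 39.4 ± 12 against 46.3 ± 10.5 RPKM (SD, n = 3) and an adjusted p of 0.50. Without KD 3 and control 2, 1 receptor was higher (*Ccrl2*) and 1 lower (*Adipor2*), and 9 of 18 partners tested passed, 6 of them lower in KD, beside 39.1% of all genes tested.

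Among 47 other factors that fat cells or their progenitors secrete, 30 were tested, 3 rose and 7 fell, beside 24.0% of all genes tested, and 4 to 14 passed with a library left out. The largest increase was in *Gdf15*, a stress-induced hormone that curbs appetite, with 14.4, 13.0 and 5.66 RPKM in KD and 2.93, 2.78 and 2.76 RPKM in control libraries. It had a log2 fold change of 1.56 (SE 0.282, adjusted p = 0.011 in limma), its groups did not overlap, and without control 1 or control 3 the adjusted p was up to 0.054. The cytokine *Il6* rose from 2.12 ± 0.377 to 4.91 ± 2.22 RPKM (log2 fold change 0.85, adjusted p = 0.047), and *Fst*, the activin binder follistatin, from 3.34 ± 0.748 to 5.40 ± 0.460 RPKM (0.57, adjusted p = 0.022). *Hp*, haptoglobin, which binds free hemoglobin, fell from 44.5 ± 5.49 to 21.9 ± 3.47 RPKM (SD, n = 3), with an adjusted p of 0.0077 in limma. *Angptl2*, a relative of *Angptl4*, fell from 18.5 ± 2.85 to 8.82 ± 0.447 RPKM (-0.98, adjusted p = 0.0049), and *Fbn1*, whose protein is cleaved into the hormone asprosin and which is also on the list of progenitor markers, from 17.9 ± 0.946 to 8.77 ± 1.99 RPKM (-0.97, adjusted p = 0.0083). The other genes that fell were *Cxcl12*, *Adm*, *Igf1* and *Agt*. With any 1 library left out, *Hp*, *Angptl2*, *Fbn1* and *Cxcl12* stayed past the threshold. *Il6* and *Agt* kept it only without KD 3, and *Fst*, *Igf1* and *Adm* lost it in 4 of 6 such fits. The most abundant factors that did not pass were *Apoe*, with 314 ± 60.6 against 353 ± 48.8 RPKM (adjusted p = 0.49), and *Sparc*, with 186 ± 12 against 232 ± 13.4 RPKM (adjusted p = 0.099). The median log2 fold change of the 30 was -0.17, and without KD 3 and control 2, 6 were higher and 8 lower.

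**Figure D4:**
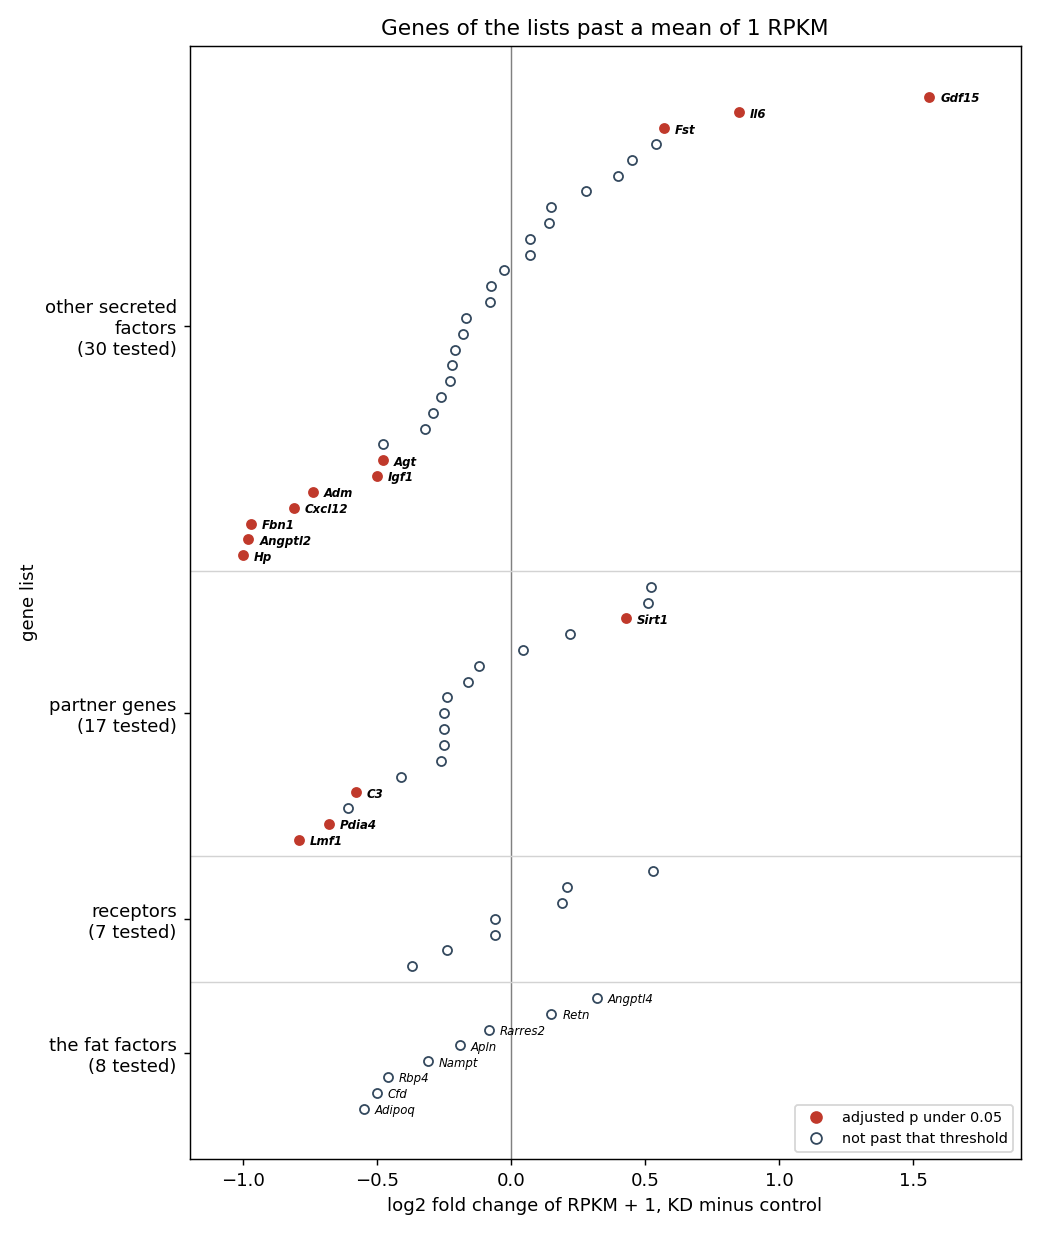
Log2 fold change (KD minus control, log2(RPKM + 1) scale) of every gene past a mean of 1 RPKM among the fat factors, their receptors, partner genes and other secreted factors, 1 gene per line in order of size, with names beside the fat factors and the genes that passed. Red dots passed an adjusted p of 0.05 in limma: 0 of 8 fat factors, 0 of 7 receptors, 4 of 17 partners and 10 of 30 other factors, beside 24.0% of all 11701 genes tested.

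Of 2994 genes with a mean of at least 10 RPKM, those whose 6 values, relative to the control mean, were most like those of *Adipoq* were *Hebp1* (root mean square difference 0.0551 on the log2 scale), *Paqr4* (0.0683) and *Car5b* (0.0684). *Hebp1*, a heme-binding protein gene, had 7.02, 9.14 and 11.2 RPKM in KD and 14.4, 13.5 and 14.2 RPKM in control libraries. *Paqr4*, of the family that also holds the adiponectin receptors, had 11.6, 13.9 and 19.5 RPKM in KD and 23.1, 20.6 and 25.1 RPKM in control libraries. For *Lep* the nearest genes were *Adam9*, *Mid1ip1* and *Psmb1*, with differences of 0.0384 to 0.0433, which are genes that hardly moved, since the level of *Lep* is flat on this scale. Of the adipocyte markers, *Pparg*, the master regulator of the fat cell, had 40.1 ± 5.23 RPKM in KD against 51.5 ± 3.26 RPKM (SD, n = 3) in control libraries (log2 fold change -0.36, adjusted p = 0.090 in limma), and *Fabp4*, a fatty acid carrier, had 3291 against 4041 RPKM (-0.30, adjusted p = 0.16). Of the 12 markers, 0 rose and 2 fell (*Cebpa* and *Slc2a4*, named after their values were seen), beside 24.0% of all genes tested, with a median log2 fold change of -0.33, against -0.55 for *Adipoq*. The call of *Cebpa* was kept without KD 3 and lost without any 1 of the other libraries (adjusted p of up to 0.12 in limma).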

How the data were processed

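Total RNA was made into libraries with a stranded total RNA kit and sequenced in paired-end reads. The authors deposited 1 table of RPKM values per transcript accession of RefSeq, Ensembl and GenBank, with 168326 lines and replicates not pooled. STAR alignment to GRCm38 is stated for the splice analysis. How this table was counted, and whether strand was used, is not given in the sources used here. Overlapping accessions share reads.

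From it, 305 exact repeats were removed and RPKM was averaged over the accessions of a symbol. Genes with a mean of at least 1 RPKM were tested as log2(RPKM + 1), a scale that understates changes of low genes, with limma-trend (limma 3.58.1, R 4.3.3) and Benjamini-Hochberg adjustment over all genes tested. Members below that mean come from the same fit with no filter. The fit was run on simulated data with independent noise and no pattern shared between libraries, so that run does not cover such patterns in these data. Depth was recovered from Ensembl transcripts with a Gencode vM21 length, of whose low values at least 95.3% were whole within 0.05 read. The precision of *Lep* is limited by its read number.

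The members and lists were chosen with earlier results of these data known. Named genes are all members and *Ctcflos*, up to 3 higher and 3 lower called genes and the 2 most abundant genes not called of each list, *Pparg* and *Fabp4* of the marker lists, and the 3 genes most like *Adipoq* and each called member. Receptor genes near 0 and the further called genes of a list were named after their values were seen. Alternatives were a pseudocount of 0.1, no filter, median-of-ratios scaling, a replicate block, RefSeq mRNAs alone, the highest accession, and each library left out. Leaving out KD 3 and control 2 together was chosen after seeing the data. Start-site windows are RefSeq sequences of GRCm38.p6. Figures used Python 3.11.15 and matplotlib 3.10.9.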

Additional observations from a re-analysis of the deposited data

How the results depend on the processing

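Of 11701 genes, 2803 passed an adjusted p of 0.05 in limma. The number was 1807 of 38335 with no filter, 1671 with the replicate number as a block and 4577 without *Ctcflos* KD 3 and control 2. It ranged from 369 to 4810 when each library was left out, with the lowest value without control 3 and the highest without KD 3. Of the members, 0 passed, against 1 with no filter, 3 without KD 3 and control 2, and 0 to 2 with a library left out (*Adipoq* and *Angptl4* without KD 3). The accessions of the members gave 0, against 3 with no filter, 17 without that pair and 0 to 10 with a library left out. In the main fit 26.0% of all 67403 accessions passed, and the shares under the other settings were not computed. Accessions of a gene share reads, so these counts are not of independent results. Receptors gave 0, against 2 without the pair and 0 to 1 with a library left out. Partners gave 4, against 9 without the pair and 1 to 7. Other secreted factors gave 10, against 5 with no filter, 5 with the replicate block and 4 to 14. The log2 fold change of *Ctcflos* was -0.66 and stayed -0.66 with the block, with an adjusted p of 0.11, and ranged from -0.72 to -0.63 with a library left out, where it passed only without KD 3 (adjusted p of 0.0097 to 0.13). The log2 fold change of *Rarres2* ranged from -0.27 without KD 2 to 0.21 without KD 3, and was also above 0 with 0.041 without control 3 and 0.071 without KD 3 and control 2, and that of *Apln* from -0.70 without control 2 to 0.39 without KD 3, with 0.0086 without control 1 and 0.11 without control 3. The other 8 members kept their direction under every alternative run. The cause of these shifts was not tested, beyond the smaller number of libraries or larger number of genes that an alternative tests.

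The replicate numbers are shared by the groups, but nothing says that they mark a common culture. The deviations of same-numbered libraries correlated at 0.287, -0.288 and -0.418 for numbers 1 to 3. KD 2 correlated best with control 3 (0.504) and KD 3 with control 2 (0.419), so the numbers were not taken as a pairing. KD 3 and control 2 were thus not the most strongly correlated libraries. With the replicate block 0 of the 8 members past the filter passed, and the adjusted p of *Lep* was 0.12. Median-of-ratios scaling moved the median log2 fold change of all genes from 0.028 to -0.012 and reversed no member. Depth limits *Lep*, which rests on 1 to 20 reads per library, and 3 libraries per group limit the rest: the 95% interval of *Apln* runs from -1.47 to 1.09.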
